A study of Mus musculus with 6 samples.

Results

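Cycling Lyve1 Mrc1 tissue macrophages are macrophages that carry the scavenger receptors Mrc1 and Lyve1 together with many transcripts of cell division genes. They were taken from a single-cell RNA sequencing matrix of a mouse series that sampled the macrophage and monocyte lineage of embryos and total bone marrow of adults. A barcode was a member when it had at least 1000 UMIs (unique molecular identifiers, 1 per captured transcript), at least 500 genes and at most 10% mitochondrial UMIs, at least 1 UMI of Csf1r and at least 3 UMIs of Mrc1 and Lyve1 together. At most 2 of 6 Kupffer cell genes and at most 3 of 7 microglia genes could be detected, and Cxcl1 and Cxcl2 together had to stay under 20 per 10000 UMIs. The last term asked for at least 20 UMIs per 10000 of 9 cell division genes, namely Mki67, Top2a, Ccnb1, Cdk1, Cenpf, Ube2c, Birc5, Tpx2 and Hmmr, and their sum is called the cell cycle score below. Of 34587 barcodes past the quality filter, 9786 met every term except the last one, and 1803 of these met that too. The other 7983 are called macrophages below the threshold. They are not all resting, since cells that copy DNA before these 9 transcripts accumulate fall among them.

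The series set out to characterise embryonic precursors of osteoclasts, the cells that resorb bone. Its 6 samples form 3 groups of 2. Cx3cr1CreER; R26tdTomato embryos received 4-hydroxytamoxifen at E9.5 (embryonic day 9.5). Csf1r-Mer-iCre-Mer embryos, which also carried Csf1r-EGFP and R26tdTomato, received it at E8.5. Both were collected as whole bodies at E14.5. The last group is untreated total bone marrow of wildtype C57BL/6 mice aged 2 months. In both embryonic lines the drug lets Cre act only in cells that use the Cx3cr1 or Csf1r promoter around that day, so the red reporter tdTomato marks those cells and their descendants and leaves other macrophages unmarked. The matrix holds 4 libraries, told apart by a numeric barcode suffix that matches no sample label. Genotypes could therefore not be compared, and every value is given for libraries 1 to 4 without a test between groups. The matrix is named for Cx3cr1 and Csf1r, as the embryonic groups are, but no barcode states which of the 6 samples it holds. Intervals cover counting error only.

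Fetal tissue macrophages arise from yolk sac and liver progenitors, settle in organs and expand there by dividing, a capacity that some resident macrophages keep into adult life. Before DNA is copied, the Mcm helicase is loaded onto origins by Cdc6 and Cdt1. Genes of that step are switched on by E2F factors around the start of S phase. Genes for chromosome segregation peak later, in G2 and mitosis, under the DREAM and MuvB complexes with B-Myb and Foxm1, which act through the CHR element TTTGAA and through CCAAT boxes bound by NF-Y.

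Because both classes of gene are set apart by their promoters, RefSeq promoter windows (GRCm38.p6, 250 bases before to 50 after a start site) were searched on both strands for TTTGAA (CHR), CCAAT, and TTCCCGC or TTGGCGC (E2F). The sequences below are the 250 upstream bases, 5′ to 3′ on the gene's strand, with every match of these motifs in capitals. Cdk1 and Ube2c are members of the score, and Mcm5 and Mcm6 encode helicase subunits. Cdk1 lies at chr10:69352913-69353162 on the minus strand, Ube2c at chr2:164769679-164769928 on the plus strand, Mcm5 at chr8:75109259-75109508 on the plus strand and Mcm6 at chr1:128359706-128359955 on the minus strand.
Cdk1: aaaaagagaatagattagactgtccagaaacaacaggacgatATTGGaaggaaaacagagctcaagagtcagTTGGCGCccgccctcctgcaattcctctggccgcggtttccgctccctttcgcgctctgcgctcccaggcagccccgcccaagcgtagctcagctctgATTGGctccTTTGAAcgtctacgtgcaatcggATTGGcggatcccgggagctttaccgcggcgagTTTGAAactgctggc
Ube2c: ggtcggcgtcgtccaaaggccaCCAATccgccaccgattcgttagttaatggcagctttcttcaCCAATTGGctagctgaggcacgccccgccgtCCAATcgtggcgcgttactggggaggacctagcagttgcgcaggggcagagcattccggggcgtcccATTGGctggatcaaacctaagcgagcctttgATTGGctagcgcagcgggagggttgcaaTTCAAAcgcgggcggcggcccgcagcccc
Mcm5: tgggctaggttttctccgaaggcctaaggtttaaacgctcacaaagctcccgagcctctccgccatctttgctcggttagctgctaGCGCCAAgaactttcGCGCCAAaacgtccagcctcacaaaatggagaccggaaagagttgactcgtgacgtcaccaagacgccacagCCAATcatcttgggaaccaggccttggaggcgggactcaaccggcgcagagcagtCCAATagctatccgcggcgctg
Mcm6: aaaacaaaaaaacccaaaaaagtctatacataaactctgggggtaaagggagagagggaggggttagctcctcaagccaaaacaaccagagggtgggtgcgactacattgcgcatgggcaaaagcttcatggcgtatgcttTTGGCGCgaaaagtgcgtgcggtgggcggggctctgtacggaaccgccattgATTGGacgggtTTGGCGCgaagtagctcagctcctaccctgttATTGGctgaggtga

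The Cdk1 stretch held 2 CHR matches, 3 CCAAT matches and 1 E2F match, and that of Ube2c 1 CHR match, 6 CCAAT matches and no E2F match. Mcm5 and Mcm6 each held 2 CCAAT matches, 2 E2F matches and no CHR match. The stretch of Ccnb1, also a score gene and not printed here, held no CHR match, 2 CCAAT matches and 1 E2F match. Over all 32851 promoter windows of 300 bases, 17.9% held a CHR match, 37.4% a CCAAT match and 6.81% an E2F match. Overlapping matches were each counted, such as CCAAT boxes on both strands in Ube2c, and the E2F match TTGGCGC can share its TTGG with a CCAAT box on the opposite strand. The 154 genes at least 2-fold higher in cycling cells, described below, include the 9 score genes. These 154 genes had 129 windows for 119 genes, of which 60.5% held CHR, 68.2% CCAAT and 17.1% E2F. Over 12302 windows of 9620 of the 12412 genes compared these shares were 12.4, 38.0 and 11.8%. Of the 9 score genes 8 were matched to 1 window each, of which 6 held CHR, 7 CCAAT and 3 E2F. The spindle and kinetochore list described below had 20 windows for 19 of its 21 genes, of which 14 held CHR, 13 CCAAT and none E2F. The origin licensing and replication fork list had 21 windows for 17 of its 21 genes, of which 3 held CHR, 13 CCAAT and 12 E2F. CHR was thus common in windows of mitotic genes and E2F in windows of replication genes, while CCAAT occurred in both. The macrophage identity list had 26 windows for 19 of its 24 genes, of which 6 held CHR, 9 CCAAT and 1 E2F. A match of letters is a description of the window and not a binding site.

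Of Lyve1 Mrc1 macrophages, 18.4% were cycling (1803 of 9786 cells, exact binomial 95% interval 17.7 to 19.2). It was 17.6% in library 1 (560 of 3178), 15.8% in library 2 (445 of 2810), 21.7% in library 3 (331 of 1525) and 20.5% in library 4 (467 of 2273). Libraries 3 and 4 lay above libraries 1 and 2, and the 95% interval of library 4 (18.9 to 22.3) overlapped that of library 1 (16.3 to 18.99) only at its edge. After every cell was thinned to 5000 UMIs, which left out 618 shallower cells, the share was 19.5%. The order of the libraries stayed the same, at 18.9, 17.0, 23.6 and 20.5%. Cells with at least 3 markers of 1 other type, globin genes not counted, were most frequent in libraries 3 and 4. They made up 20.4, 16.6, 52.3 and 59.3% of cycling cells and 14.1, 12.9, 38.9 and 46.5% of the rest. Without them and without cells over 100 globin UMIs per 10000, 1147 cycling cells and 5877 of the rest remained. The part of such cells in the order of the libraries was not tested. Microglia of the same matrix, taken as Csf1r-positive cells with at least 4 of the 7 microglia genes, had 283 of 1956 cells past the same score, or 14.47% (12.9 to 16.1). Kupffer cells, with at least 3 of the 6 Kupffer genes, had 208 of 1229, or 16.9% (14.9 to 19.1). The unthinned share of Lyve1 Mrc1 macrophages was the highest of these populations in each of the 4 libraries, although its pooled interval overlapped that of Kupffer cells. After thinning, Kupffer cells were higher in library 1 (19.1 against 18.9%) and library 3 (24.8 against 23.6%) and lower in libraries 2 and 4, so no order between these was kept. Microglia stayed lower than Lyve1 Mrc1 macrophages in all 4 libraries, at 14.47 to 18.0% after thinning. Cells with markers of other types were kept in all of these shares, and their part in the order of the populations was not tested.

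**Figure D1:**
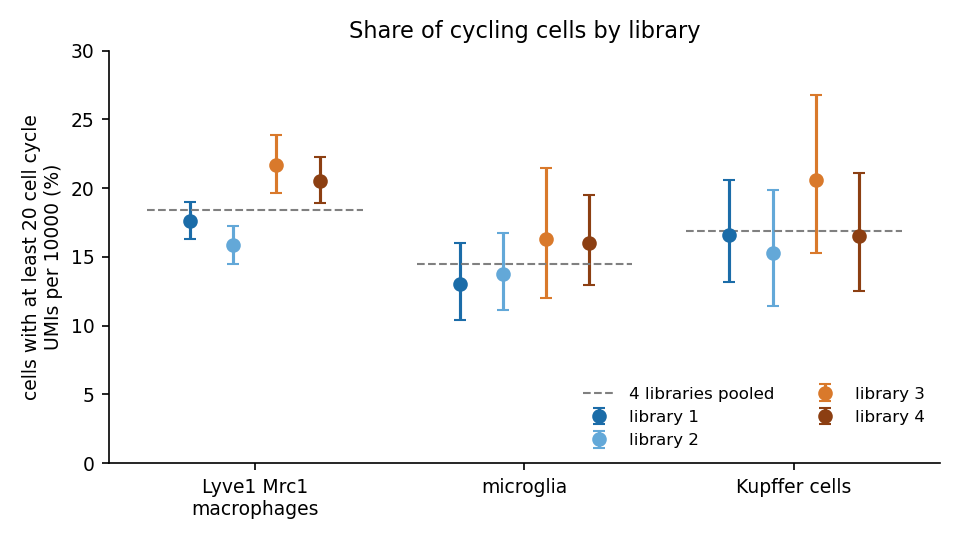
Share of cells, in percent, with at least 20 UMIs of the 9 score genes per 10000, for 3 macrophage populations in libraries 1 to 4. Points are shares, bars exact binomial 95% intervals and dashed lines the share over all 4 libraries, which was 18.4% for Lyve1 Mrc1 macrophages, 14.47% for microglia and 16.9% for Kupffer cells.

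Cycling cells held more RNA molecules than macrophages below the threshold. The median was 19035 UMIs and 4175 genes per cell against 13446 UMIs and 3384 genes, and the mean UMIs per cell were 1.40 times higher. The median UMIs of cycling cells were 18397, 17930, 20198 and 20826 in libraries 1 to 4, each above the 13207, 12863, 13334.5 and 14821 of the cells below the threshold. Mitochondrial UMIs were 2.57 and 2.66% of the total. Levels are given below as CPM, the UMIs of a gene per 1000000 UMIs of the class. A gene whose molecules per cell stay level thus reads lower in cycling cells, which held more UMIs. Molecules per cell are therefore given too where they matter. The 4 libraries held between 106500620 and 198754246 UMIs, and among kept barcodes 571 sequences occurred in more than 1 library, of which 1 was shared by 2 cycling cells.

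The 9 score genes chose the members, and their values are given only to describe them. Mki67, the proliferation antigen that coats mitotic chromosomes, stood at 320, 319, 311 and 253 CPM in cycling cells of libraries 1 to 4 and at 47.4, 39.8, 50.3 and 46.4 CPM below the threshold. Top2a, which untangles sister chromatids, stood at 457, 452, 454 and 399 CPM against 74.5, 68.7, 79.0 and 84.8 CPM. The mitotic cyclin Ccnb1 stood at 298 CPM over all libraries against 33.0 CPM, and its partner kinase Cdk1 at 370 against 86.0 CPM. All 9 score genes were detected in 68.5% of cycling cells and at least 7 of them in 92.5%. Below the threshold these shares were 2.44 and 11.3%. The median score was 31.7 per 10000 in members and 2.21 per 10000 in the rest, but the threshold cut through a continuous range. There were 423 members with a score from 20 to 25, and 524 cells from 15 to 20 just outside. Summed spindle genes were 15.5 per 10000 UMIs in the 106 cells scoring 19 to 20 and 16.2 in the 88 cells scoring 20 to 21, and summed identity genes 263 and 259. Csf1r, the growth factor receptor of macrophages, was at 840, 863, 631 and 728 CPM in cycling cells, Mrc1 was detected in 99.6% of them and Lyve1 in 54.8%. The rule required Csf1r and Mrc1 or Lyve1, so these values describe the choice of cells. Lyve1 was missing from many cells of both classes (54.5% detected below the threshold).

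Differences below are log2(CPM + 10) in cycling cells minus that in macrophages below the threshold. The added 10 CPM understates differences of low genes. Over 12412 genes with at least 100 UMIs the median difference was -0.01, and 53.1% of them were below 0. This share is the background for counts of list genes below 0. It was 57.9% against cells below the threshold matched in depth, and 53.8% without cells that hold markers of other types. At least 2-fold higher were 154 genes (1.24% of those compared), 151 of them in the same direction in all 4 libraries, and 9 were at least 2-fold lower (0.0725%), or 5 without library 2. These 154 genes, which include the 9 score genes, made up 2.33% of all UMIs in cycling cells and 0.605% below the threshold. Of them 62, again with the 9 score genes, belong to the lists described here. The lowest cycling library lay above the highest library below the threshold for 13.7% of genes compared, and the reverse held for 14.0%, so separation of the libraries alone is frequent. The score was built from genes of the same contrast, so counts of cell cycle genes describe what such a score gathers and are no independent evidence.

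Genes of chromosome segregation were higher throughout. All 21 spindle and kinetochore genes were at least 2-fold higher, with a median difference of 1.90 (1.77 to 2.08 over the libraries). Nusap1, which bundles spindle microtubules, led the list at 248, 265, 244 and 233 CPM against 21.5, 18.6, 20.7 and 26.5 CPM, a difference of 3.02. Prc1, which crosslinks the central spindle, differed by 2.73 (171 against 17.4 CPM), and the kinetochore motor Cenpe by 2.62 (193 against 23.2 CPM). The smallest difference in the list was that of the checkpoint protein Mad2l1, 1.06 (81.3 against 33.8 CPM). For each of these 4 genes the lowest cycling library lay above the highest library below the threshold.

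Among cyclins and kinases, 10 of 20 passed the 2-fold mark upwards and none downwards, with a median of 0.86. The higher ones act in G2 and mitosis. Plk1, the kinase that drives entry into mitosis, stood at 150, 156, 168 and 170 CPM against 11.5, 10.8, 13.04 and 17.4 CPM, a difference of 2.89. Aurka, which matures spindle poles, differed by 2.58, Aurkb by 2.14, the S and G2 cyclin Ccna2 by 2.23 (206 against 36.1 CPM) and the Cdk1 phosphatases Cdc25b and Cdc25c by 1.43 and 1.50. Of the cyclins of G1 and of the start of S phase, Ccne2, Ccnd1 and Ccnd2 were lower in cycling cells and Ccnd3 slightly higher (126 against 109 CPM, 0.20, and -0.02 against depth-matched cells). Ccne2 stood at 7.73, 8.24, 7.81 and 5.13 CPM against 20.8, 20.4, 19.4 and 16.1 CPM (-0.77), Ccnd1 at 90.2 against 140 CPM (-0.58) and Ccnd2 at 29.8 against 62.5 CPM (-0.86). Ccnd2 varied between libraries, from -1.40 to -0.29, while Cdk4, the kinase partner of D cyclins, was close to level at 0.18 (370.5 against 327 CPM), and at -0.03 against depth-matched cells.

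The machinery that ends mitosis resembled the spindle list. Of 10 anaphase promoting complex and cytokinesis genes, 9 were at least 2-fold higher, with a median of 1.53. Cdc20, the activator of the complex at anaphase, stood at 247, 271, 241 and 272 CPM against 29.1, 25.6, 35.3 and 41.0 CPM, a difference of 2.67, and Racgap1, which organises the cleavage furrow, differed by 2.24. The exception was Pttg1, the securin that holds back separase, at 0.65. It stood at 45.6, 53.0, 132 and 107 CPM in cycling cells and at 44.9, 45.2, 51.8 and 55.0 CPM below the threshold. Pttg1 was therefore at nearly the same level in both classes in library 1, whereas libraries 3 and 4 were well above all others.

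Chromatin genes were mixed. Of 18 genes, 10 were at least 2-fold higher, with a median of 1.20. Hmgb2, a chromatin protein abundant in dividing cells, stood at 1893, 1998, 1931 and 1945 CPM against 570, 529, 626 and 658 CPM, a difference of 1.70. The histone variant H2afx differed by 2.27 (576 against 112 CPM), and the condensin subunit Smc4 by 1.93. Lmnb1 and Tmpo, both of the nuclear lamina, were also at least 2-fold higher (1.20 and 1.20). Genes that act on freshly copied DNA differed among themselves. The histone chaperone Asf1b was at least 2-fold higher (146 against 54.9 CPM, 1.26). The chromatin assembly factor subunits Chaf1a and Chaf1b differed by -0.01 and -0.45, and the maintenance methylation factor Uhrf1 by -0.29 (0.20 against cells scoring at most 5). Among genes outside the lists, the highest included Pimreg (2.38), Kif22 (2.33), Cks2 (2.25), Ccnf (2.22), Cdca8, Cdca3, Pbk, Kifc1, Hist1h2ap, Kif20b and Cdca2, most of them mitotic genes. Hist1h2ap shares most of its sequence with other histone genes, so its count of 315 against 73.3 CPM is uncertain.

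Replication genes did not follow the mitotic ones. None of 21 origin licensing and replication fork genes differed 2-fold in either direction, and their median was -0.02 (-0.10 to -0.01 over the libraries). Genes that load the helicase were lower. Mcm2 stood at 47.0, 49.2, 55.0 and 54.6 CPM in cycling cells and at 86.1, 87.7, 90.9 and 86.2 CPM below the threshold (-0.67). Cdt1, the loading factor, stood at 19.6, 21.6, 30.2 and 27.7 CPM against 49.9, 47.5, 54.9 and 50.7 CPM (-0.81), and Cdc6 differed by -0.73. The libraries of both classes did not overlap for Mcm2, Cdt1 and Cdc6. Gmnn, which blocks Cdt1 after S phase begins, was slightly higher (135 against 105 CPM, 0.33), as was the flap nuclease Fen1 (0.30), though at matched depth they were at -0.01 and 0.01. The 3 most abundant members in cycling cells were Mcm6 (114 against 160 CPM, -0.46), the sliding clamp Pcna (126 against 122 CPM, 0.04) and Gmnn. In all, 7 of the 21 genes were higher and 10 lower in each of the 4 libraries. The same share over all genes compared is not given, so this count is a description only.

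The sign of this median depended on which cells below the threshold were used. It was -0.24 against 1780 of them matched in depth within each library (median 18849 UMIs), with 19 of 21 genes below 0, and 0.25 against only those with at most 5 score UMIs per 10000, a comparison added after the data were seen. Spindle genes kept their direction in both, at 1.61 and 2.48. Nucleotide synthesis lay between, with a median of 0.28 over 8 genes, all above 0 and none 2-fold different. The ribonucleotide reductase subunit Rrm1 (170 against 84.1 CPM, 0.94), thymidylate synthase Tyms (173 against 84.4 CPM, 0.95) and thymidine kinase Tk1 (140 against 65.9 CPM, 0.98) were close to 2-fold. The median of this list was 0.01 against depth-matched cells and 1.08 against cells scoring at most 5.

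Ordered by the score, the 9786 macrophages showed where each group of genes peaked. Summed licensing and fork genes stood at 894 CPM in cells scoring 0 to 2, reached 2233 CPM at 10 to 15, just below the threshold, and were 1744 CPM at 20 to 25 and 853 CPM at 40 to 60. Ung, the uracil DNA glycosylase used at replication forks, peaked earlier, at 80.9 CPM in cells scoring 5 to 10, and was at 19.7 CPM at 20 to 25 and 1.85 CPM at 40 to 60. Licensing and fork transcripts and Ung were thus most abundant in cells that the rule leaves outside. Rrm2, the S phase subunit of ribonucleotide reductase, went from 13.2 CPM at 0 to 2 to 219 CPM at 10 to 15 and back to 37.5 CPM at 40 to 60. Other genes of S phase did not peak outside the class so clearly. Tk1 was at 157 CPM at 15 to 20 and 154 CPM at 30 to 40, and Hist1h2ap was highest at 30 to 40, at 382 CPM. Spindle genes stood at 158 CPM at 0 to 2, 1051 CPM at 10 to 15, 1785 CPM at 20 to 25 and 3238 CPM at 40 to 60. Spindle genes share the score's mitotic character, so their climb describes the score. The 58 cells scoring 60 or more lay at 606 CPM for licensing and 4359 CPM for spindle genes, but hold as few as 8 cells in 1 library.

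**Figure D2:**
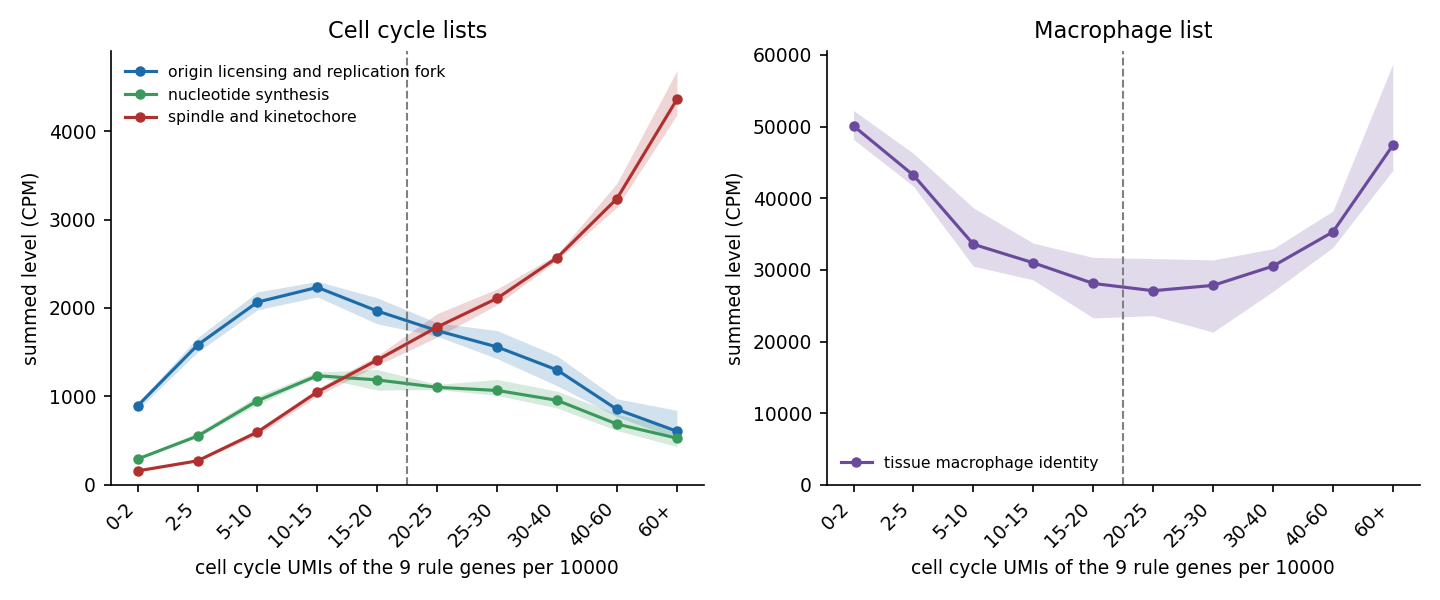
Summed level in CPM of gene lists in Lyve1 Mrc1 macrophages binned by UMIs of the 9 score genes per 10000, with 3 cell cycle lists on the left and the macrophage identity list on the right. Lines are the 4 libraries pooled, shading spans the lowest to the highest library, and the dashed line marks the threshold of 20. Licensing genes peak at 2233 CPM in the 10 to 15 bin, spindle genes climb to 4359 CPM, and identity genes are lowest at 27092 CPM in the 20 to 25 bin.

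The members differed among themselves along the same axis. Per cell, summed licensing genes ran from 4.10 per 10000 UMIs at the 10th percentile to 25.4 at the 90th, and summed spindle genes from 15.3 to 37.8. Across the 1803 cycling cells both sums were inversely related (Spearman's rho -0.37), and by library rho was -0.31, -0.42, -0.41 and -0.35. Across cells below the threshold they went together (rho 0.39). These correlations describe cells of shared libraries, and both sums are shares of the same UMI total. The classes were also cut by the score, above the bin where licensing genes peaked, so both signs depend on where the rule cuts.

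Regulators of the cycle were mixed. Of 9 E2F and mitotic transcription factors only Foxm1, the activator of G2 and mitotic genes, was at least 2-fold higher, at 31.6, 33.2, 28.9 and 28.2 CPM against 5.52, 4.85, 4.20 and 5.84 CPM (1.41). E2f1 was lower, at 12.5 against 23.8 CPM (-0.59), and did not overlap between the classes. The list's median was 0.17, and -0.08 against depth-matched cells. Among 10 measured CDK inhibitor and quiescence genes, 2 were at least 2-fold higher. Cdkn2c (p18, an inhibitor of Cdk4 and Cdk6) stood at 132, 130, 114 and 102 CPM in cycling cells and at 19.3, 16.6, 15.1 and 15.9 CPM below the threshold, a difference of 2.26. Cdkn2d (p19) stood at 77.4, 78.4, 78.4 and 79.7 CPM against 20.6, 21.0, 22.1 and 25.3 CPM (1.46). Both of these inhibitors were thus higher in every library of the cells rich in mitotic transcripts. Cdkn2c also followed the score, from 7.68 CPM at 0 to 2 through 72.0 CPM at 20 to 25 to 173 CPM at 40 to 60. Cdkn1a (p21) was lower, at 96.4 against 141 CPM (-0.51), and its libraries did not overlap.

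DNA damage and repair genes had a median of 0.15, with none of 12 at 2-fold, and -0.003 against depth-matched cells. Rad51ap1 (0.68) and the checkpoint kinase Chek2 (0.57) were the highest. Of 10 measured regulators tied to macrophage self-renewal, such as Maf and Myc, none differed 2-fold and the median was -0.08. Maf, which restrains self-renewal in macrophages, differed by -0.09, and by 0.14 against depth-matched cells, and Myc, which promotes it, by -0.34 (17.5 against 24.8 CPM). The bHLH repressor Bhlhe41 stood at 9.2, 9.4, 8.6 and 9.9 CPM against 15.8, 14.7, 11.3 and 11.4 CPM (-0.29, and -0.07 against depth-matched cells), which was lower in every library though close to the added 10 CPM.

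**Figure D3:**
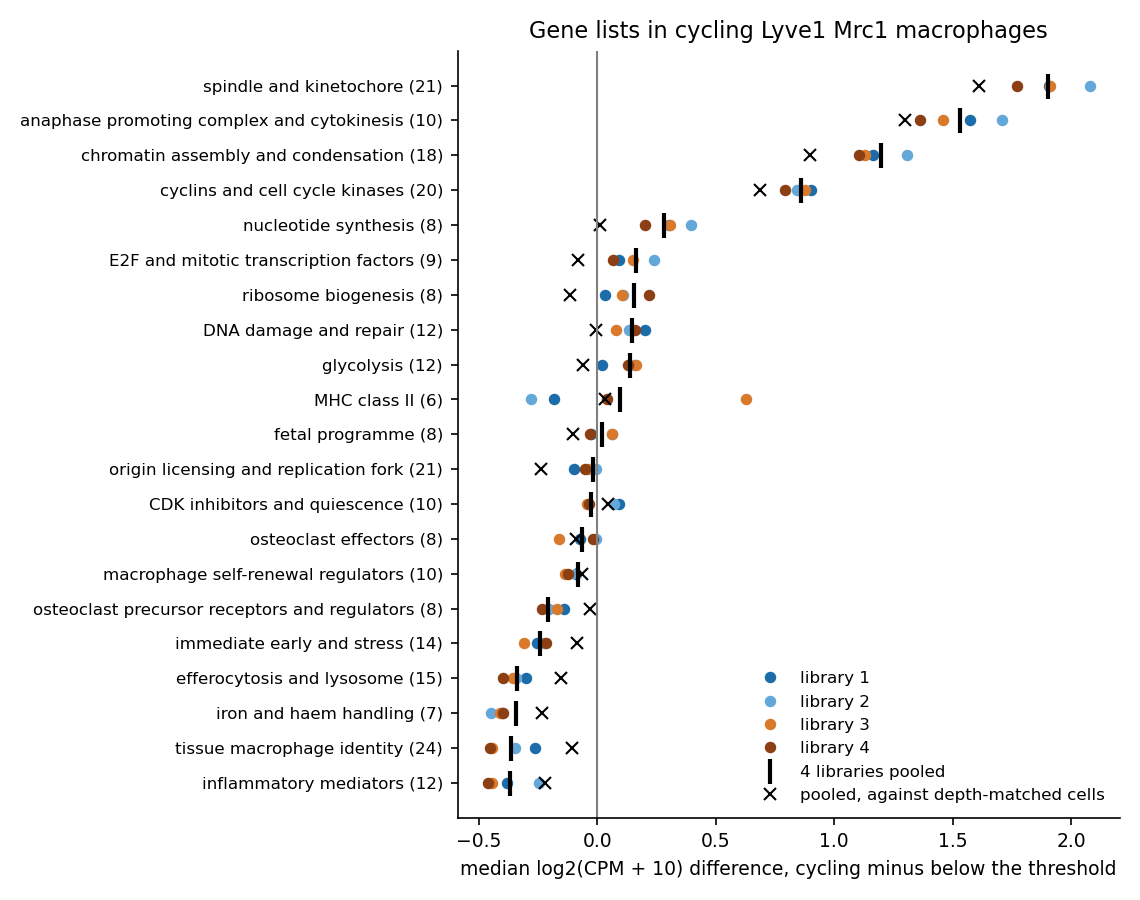
Median log2(CPM + 10) difference of each gene list, cycling minus below the threshold, with the number of genes compared in brackets. Circles are libraries 1 to 4, vertical ticks the pooled value and crosses the pooled value against cells below the threshold of matched depth. Mitotic lists lie from 0.86 to 1.90, and the macrophage identity list lies at -0.36, or at -0.11 against matched cells.

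Most macrophage genes took a smaller share of the RNA of cycling cells, while the number of their molecules per cell stayed close to level. Of 24 tissue macrophage identity genes, 23 were below 0, and 1 of these, Ms4a7, was at least 2-fold lower. The median was -0.36 (-0.45 to -0.26 over the libraries). Summed over the list, a cycling cell held 623 UMIs and a cell below the threshold 615. Against depth-matched cells the median was -0.11, with 20 of 24 genes below 0, so the list lay nearer to level when cells of equal depth were compared. Csf1r, a gene of the rule and not of the list, was at -0.34, and at 0.02 against depth-matched cells.

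Ms4a7, a membrane protein of tissue macrophages, stood at 275, 280, 260 and 306 CPM in cycling cells and at 489, 580, 586 and 690 CPM below the threshold, a difference of -1.01. It was lower per cell too, at 5.74 against 8.45 UMIs, and differed by -0.56 against depth-matched cells. Without library 3 or 4 it lay just short of 2-fold (-0.98 and -0.97). Apoe, the lipid carrier that makes up the largest part of the list's UMIs, stood at 14845, 15538, 13136 and 12624 CPM against 20286, 23158, 20645 and 19869 CPM (-0.58). A cycling cell held 286 Apoe UMIs and a cell below the threshold 307. Igf1, a growth factor, differed by -0.75 (138 against 239 CPM) and the folate receptor Folr2 by -0.62 (159 against 251 CPM). For Ms4a7, Apoe, Igf1 and Folr2 the classes did not overlap between libraries. The complement gene C1qa differed by -0.38 and was at 40.1 against 37.3 UMIs per cell. The chemokine receptor Cx3cr1 was the only list member above 0, at 359, 332, 596 and 593 CPM against 328, 333, 649 and 571 CPM (0.08). The Cx3cr1 level separated libraries 3 and 4 from libraries 1 and 2 and did not separate the classes.

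Identity genes were not lowest in the cells with the highest score. Summed over the list they stood at 50090 CPM in cells scoring 0 to 2, 27092 CPM at 20 to 25, 35292 CPM at 40 to 60 and 47378 CPM at 60 or more. Apoe followed this course, from 26395 through 12288 and 16168 to 23272 CPM. Csf1r, a gene of the rule and not of the list, went from 1143 through 704 and 895 to 1076 CPM. Median depth also varied along the score, from 12479 UMIs at 0 to 2 to 17444 at 20 to 25, 19639 at 40 to 60 and 14970 at 60 or more. The part of depth in this course was not tested.

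**Figure D4:**
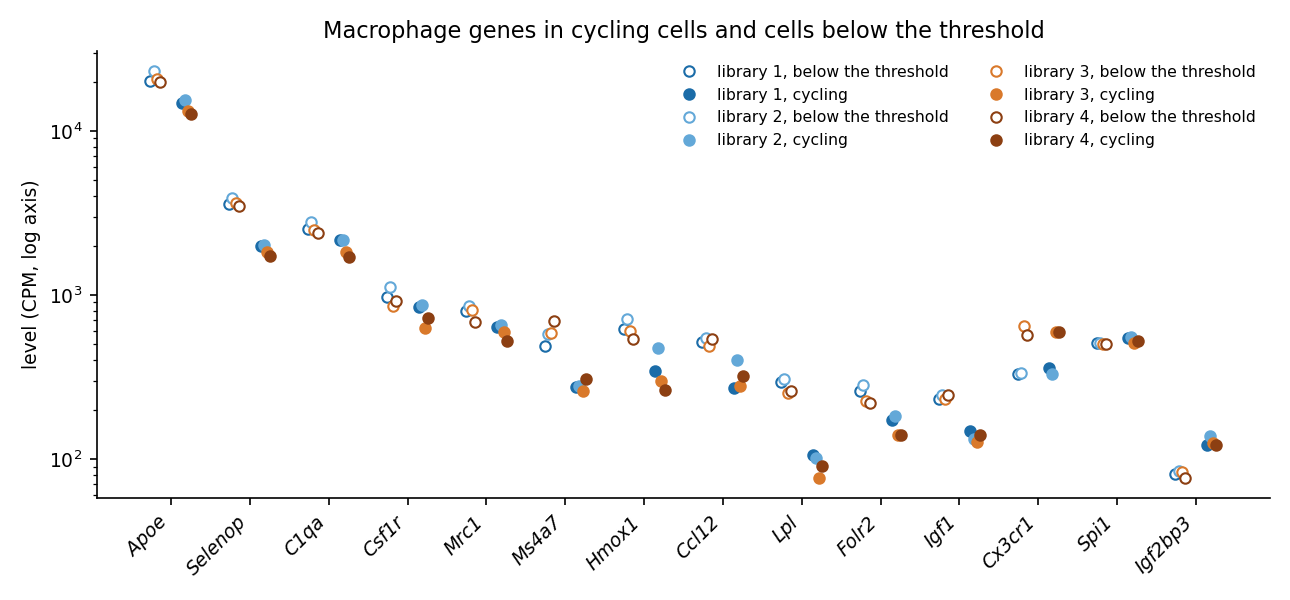
Level in CPM (log axis) of 14 macrophage genes in cells below the threshold (open circles) and cycling cells (filled circles) of libraries 1 to 4. Csf1r and Mrc1 among them are genes of the rule. Ms4a7, Lpl and Apoe are lower in cycling cells of every library, Igf2bp3 is higher, and Cx3cr1 differs between libraries and not between the classes.

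Efferocytosis and lysosome genes, which serve the uptake and breakdown of dead cells, had a median of -0.34, with 14 of 15 below 0 and none at 2-fold. The lysosomal protease Ctsb stood at 3488, 3555, 3597 and 3225 CPM against 4672, 5056, 5093 and 4935 CPM (-0.51). The bridging ligand Gas6 differed by -0.61 and Ctsd by -0.60. Per cell the list was level, at 204 UMIs in cycling cells and 198 in the rest. Against depth-matched cells its median was -0.15. Iron and haem genes had a median of -0.34, all 7 below 0. Hmox1, which breaks down haem, stood at 344, 476, 298 and 264 CPM against 621, 716, 605 and 538 CPM (-0.85), and the iron exporter Slc40a1 differed by -0.75. Both remained lower against depth-matched cells, at -0.57 and -0.44. The 4 libraries did not overlap for either gene.

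Inflammatory mediators had a median of -0.37, with 10 of 12 below 0 and none at 2-fold. The chemokine Ccl12 stood at 271, 402, 280 and 323 CPM against 518, 545, 490 and 536 CPM (-0.71), and Ccl3 differed by -0.59 and Ccl6 by -0.83. The cytokines Tnf and Il1b were at 0.00 and 0.21, and at -0.13 and -0.54 without cells that hold markers of other types, where all 12 genes of the list were below 0. Neutrophil markers moved in the same direction as Il1b, and their part was not tested. Per cell the list was level, at 49.8 and 49.3 UMIs, and its median was -0.22 against depth-matched cells. Immediate early genes, which also respond to cell dissociation, had a median of -0.24, with Junb at -0.54. Chemokines and early genes were thus lower together as shares of the RNA.

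Outside the lists the lowest genes held 2 kinds of named gene. Ung (-1.64), the chromatin remodeller Hells (-0.97) and Cdca7 (-0.83) belong to replicating cells. Ung stood at 9.1, 9.0, 11.8 and 9.4 CPM against 51.2, 49.1, 59.7 and 48.8 CPM. Lpl and Selenop are macrophage products. Lpl, lipoprotein lipase, stood at 106, 102, 76.9 and 90.4 CPM against 293, 309, 252 and 261 CPM, a difference of -1.48 and the lowest of any macrophage gene named here. It was also lower per cell (1.93 against 4.12 UMIs) and against depth-matched cells (-1.30). The selenium carrier Selenop stood at 1990, 2005, 1830 and 1732 CPM against 3605, 3927, 3637 and 3492 CPM (-0.95), and the lectin Clec4n differed by -0.84. Libraries of the classes did not overlap for any of these 6 genes. The remaining genes chosen by the same rule were Map1b, Nnat, Sox11, Tuba1a, Tubb2b and Dnajb9, of which several are neural genes. Without cells that hold markers of other types Nnat was at -0.41, Map1b at -0.58 and Sox11 at -0.20, against -1.03, -1.08 and -0.87 with them, while Lpl stayed at -1.46. The 9 genes at least 2-fold lower were Ung, Lpl, Ms4a7, Map1b, Nnat, the neural tubulin Tubb3, the platelet chemokine Ppbp, the fetal hepatocyte gene Afp and the embryonic globin Hbb-y. Tubb3, Ppbp and Afp were at -0.21, -0.02 and -0.09 without cells that hold other markers. These genes are themselves among the markers that chose the cells removed, so their smaller differences were built into the removal. Without library 2 Map1b and Nnat were at -0.97 and -0.96. Summed neural markers ran from 23.9 to 28.7 CPM over the cycling libraries and from 32.3 to 100 CPM below the threshold, hepatocyte markers from 24.8 to 48.3 and from 29.5 to 155 CPM, and megakaryocyte markers from 6.20 to 10.97 and from 9.47 to 112 CPM. Their part in these differences was not tested.

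Osteoclast genes were of interest because the series concerns osteoclast precursors. Tnfrsf11a, which encodes the receptor RANK, stood at 32.5, 29.9, 33.4 and 32.5 CPM in cycling cells and at 37.7, 36.6, 46.2 and 43.0 CPM below the threshold (-0.25, and -0.13 against depth-matched cells). Spi1, the myeloid master factor PU.1, stood at 543, 556, 508 and 525 CPM against 506, 507, 502 and 505 CPM (0.08), and Nfatc1 differed by 0.12. The receptor and regulator list had a median of -0.21 over 8 genes, and -0.03 against depth-matched cells. Effectors of bone resorption had a median of -0.06 and were at low levels in both classes. Ctsk, the matrix protease of osteoclasts, was at 1.0, 0.7, 1.1 and 1.7 CPM in cycling cells. No osteoclast gene differed 2-fold between the classes.

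Genes of growth were slightly higher as shares of RNA and not against cells of equal depth. Glycolysis genes had a median of 0.14 and ribosome biogenesis genes of 0.15, and against depth-matched cells these were -0.06 and -0.11, with 10 of 12 and 8 of 8 genes below 0. Of 8 fetal programme genes Igf2bp3 was the highest and the one whose libraries did not overlap between the classes. This RNA-binding protein of fetal cells stood at 122, 138, 126 and 122 CPM in cycling cells and at 80.9, 84.7, 83.4 and 77.1 CPM below the threshold. Its difference was 0.58 in both the full and the depth-matched comparison, and a cycling cell held 2.58 of its UMIs against 1.19. Lin28b, Igf2bp1 and H19 differed by -0.01, 0.05 and -0.23, with overlapping libraries. MHC class II genes had a median of 0.10 that rested on library 3, where H2-Aa stood at 49.5 CPM against 14.9 CPM. Library medians ran from -0.28 to 0.63, and leaving libraries out in turn gave -0.15 to 0.18, with the lowest value without library 3.

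The tdTomato reporter was present in cycling cells and at a lower share of RNA than below the threshold. It stood at 85.4, 121, 147 and 177 CPM in cycling cells of libraries 1 to 4 and at 148, 213, 211 and 237 CPM in the rest, a difference of -0.56. Each cycling library was lower than its own counterpart, while across libraries the ranges overlapped. Per cell the values were 2.68 and 2.89 UMIs, and against depth-matched cells the difference was -0.22. Of cycling cells 51.7% held a tdTomato UMI and of the rest 51.2%. After thinning to 5000 UMIs, which left out 98 cycling cells and 520 of the rest, the shares were 29.3% (27.1 to 31.5) and 36.4% (35.3 to 37.5), and the cycling share was lower in each library (21.2, 26.1, 34.4 and 38.9% against 28.8, 35.4, 42.7 and 44.7%). As background, 390 cells rich in collagen transcripts and without Csf1r held a UMI in 22.8% of cells (median 11089 UMIs), in 14.2% after thinning, at 32.8 CPM. The shares of both macrophage classes lay above that background. A share of cells with a UMI is not a share of labelled cells.

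Transcripts of other cell types varied between classes and libraries and were read from lists of their markers. Summed neutrophil markers stood at 129, 401, 3302 and 1486 CPM in cycling cells of libraries 1 to 4 and at 137, 107, 1129 and 1104 CPM below the threshold, and none of the 6 markers was at 0 in cycling cells. S100a8, the leading neutrophil gene, ran along the score from 231 CPM at 0 to 2 to 1042 CPM at 20 to 25 and 97.5 CPM at 40 to 60. Libraries 3 and 4 held most neutrophil, mast cell and granulocyte-monocyte progenitor transcripts in both classes. Monocyte markers were higher in cycling cells of all 4 libraries, at 370, 416, 569 and 593 CPM against 245, 222, 347 and 426 CPM. Erythroid markers were at 1507, 726, 2796 and 5612 CPM against 4898, 2452, 1445 and 2485 CPM, so they were lower in cycling cells of libraries 1 and 2 and higher in those of libraries 3 and 4. Microglia markers stood at 113 CPM in cycling cells and 147 CPM in the rest, and Kupffer cell markers at 34.4 and 49.5 CPM. The rule capped how many of these microglia and Kupffer cell genes could be detected in a cell. Their levels are therefore partly set by the choice of cells. No marker of any of these lists was at 0 in cycling cells.

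**Figure D5:**
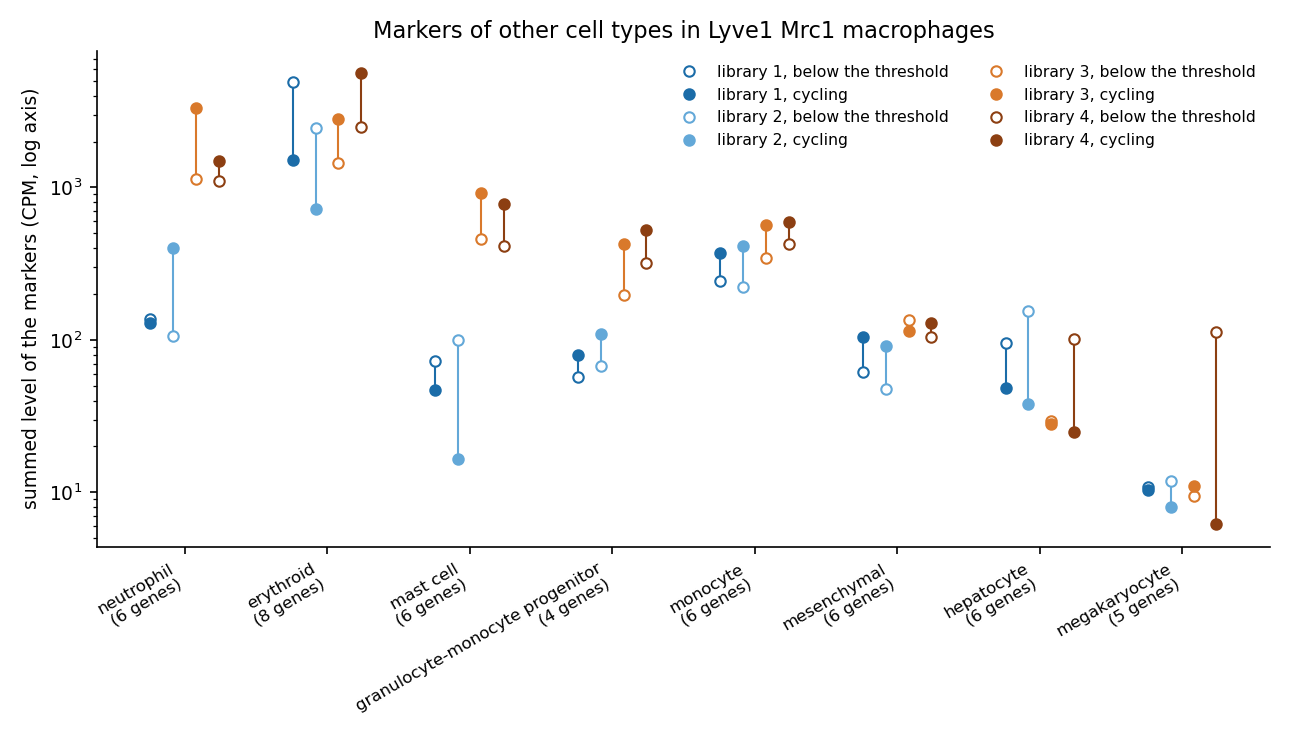
Summed level in CPM (log axis) of markers of 8 other cell types in Lyve1 Mrc1 macrophages below the threshold (open circles) and cycling (filled circles), joined within each of libraries 1 to 4. Neutrophil markers reach 3302 CPM in cycling cells of library 3 and 129 CPM in those of library 1, and monocyte markers are higher in cycling cells of every library.

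Cells with at least 3 markers of 1 other type, globin genes not counted, made up 35.4% of cycling cells and 24.8% of the rest. By library these shares were 20.4, 16.6, 52.3 and 59.3% in cycling cells and 14.1, 12.9, 38.9 and 46.5% in the rest. No doublets were called, and the part of mixed droplets in the cycling class was not tested. Without such cells, and without cells over 100 globin UMIs per 10000, the class held 1147 cells. There the spindle median was 2.12, the identity median -0.25 and the licensing median 0.09, and the difference of Ms4a7 was -0.90 and that of Cdkn2c 2.55. The neutrophil median was -0.03, where it had been 0.99 with all cells. Neutrophil markers were among those that chose the cells removed, so this fall was built into the removal. The MHC class II median was -0.41 and that of ribosome biogenesis -0.002.

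The same lists were read in microglia and Kupffer cells split by the same score. At least 2-fold higher were 1.84% of 9670 genes in microglia and 1.29% of 8896 in Kupffer cells. The spindle median was 2.00 in microglia and 1.53 in Kupffer cells, next to 1.90 in Lyve1 Mrc1 macrophages, and the licensing medians were 0.02, 0.11 and -0.02. Cdkn2c differed by 2.35 in microglia and 2.00 in Kupffer cells, and Ung by -1.59 and -1.34. The identity medians were -0.34 and -0.27. Lpl was less reduced there, at -0.66 and -0.64 against -1.48 in Lyve1 Mrc1 macrophages, and Hmox1 ranged from -1.02 in microglia to -0.04 in Kupffer cells. None of these differences between populations was tested.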

How the data were processed

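Per the labels' protocols, cells were captured in droplets with 10x Genomics 3′ chemistry. The authors deposited UMI counts of 31054 features in 39048 barcodes. The authors used Cell Ranger 2.1.1 and the mm10 build, per the submitters' processing notes, while per the file headers Cell Ranger 3.0.1 produced the matrix. Strand settings are not given in the sources used here. Members were found by the thresholds on UMI counts given above, and no doublets were removed. Counts were summed per class and library, divided by the total and compared as log2(CPM + 10). Genes needed at least 100 UMIs over both classes, and 1 list symbol shared by 2 gene identifiers was left out. Shares carry exact Clopper-Pearson intervals. The planned comparisons between genotypes were not run, because libraries match no sample. The named genes are the score genes, Csf1r, Mrc1, Lyve1 and tdTomato, the members of each list that differ at least 2-fold or else its 3 most abundant in cycling cells, and the 12 highest and 12 lowest genes outside the lists that reach 30 CPM and keep their sign in all 4 libraries, ribosomal, mitochondrial and predicted genes left out. Other list members were named after their values were seen. A few genes these rules name are not reported here. Members and lists were chosen with earlier results of these data known. The calculation was tested on simulated data. Alternatives varied the pseudocount, gene filter, threshold, depth, marker content and libraries. Software was Python 3.11.15, NumPy 2.4.6, SciPy 1.17.1, pandas 2.3.3 and matplotlib 3.10.9.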

Additional observations from a re-analysis of the deposited data

Results flagged for a closer look

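Of 96 values checked across the 4 libraries, 1 had a library far from the others, where chance flags about 1 in 20 groups. The log2 difference of Kif20a, a kinesin of the central spindle, was 2.4 in library 2 and 1.98 to 2.05 in the other libraries. Its level there was 100 CPM in cycling cells and 10.9 CPM below the threshold.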

How the results depend on the processing

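No paired analysis was possible because the labels' replicate numbers, which could pair samples across genotypes, appear on no library. Cycling cells and the rest of the same library are given side by side instead. No result changed sign past the 2-fold mark. Genes at least 2-fold higher were 272 with a pseudocount of 1 CPM, 56 with 50 CPM and 102 among genes of at least 50 CPM, and 152 to 167 with 1 library left out. Genes at least 2-fold lower were 73, 1 and 5 in the same order, 3 with the mean over cells or of the 4 libraries, 34 for a score of 40 against at most 5, 16 against depth-matched cells, 14 with at least 3 UMIs of each of Mrc1 and Lyve1 or against a score of at most 5, and 5 to 11 with 1 library left out, the 5 being without library 2. The licensing median was -0.17 among genes of at least 50 CPM, 0.10 as a mean over cells, -0.13 for 40 against at most 5, -0.24 at matched depth, 0.03 without the deepest cells, 0.181 and 0.091 without cells with other markers (globin counted, or handled apart), -0.20 with both Mrc1 and Lyve1 and 0.25 against at most 5. The spindle median was 2.47 and 0.99 with pseudocounts of 1 and 50 CPM, and 2.08, 2.82, 1.61, 2.17, 2.12 and 2.48 for the mean over cells, 40 against at most 5, matched depth, both removals and at most 5. The identity median was -0.11 at matched depth, -0.25 without other markers (globin apart) and -0.50 against at most 5, and the inflammatory median -0.47 for 40 against at most 5 and -0.22 at matched depth. The cycling share was 29.7% at a score of 10 and 4.78% at 40, where it was 3.94% in microglia and 3.01% in Kupffer cells. Among Lyve1 Mrc1 macrophages it was 14.7% without cells with other markers, globin counted. That removal left out 88.4% of cycling cells and 84.8% of the rest. The removal with globin handled apart kept 1147 cycling cells and 5877 of the rest. The tdTomato share was 19.8% at 2000 UMIs, 51.7% unthinned and 16.1% for at least 2 UMIs. Globin apart and at most 5 were chosen after seeing the data. With 1 library left out, the cycling share was 17.8 to 19.5%, the tdTomato share 26.1 to 33.0%, and the spindle and identity medians 1.84 to 1.96 and -0.42 to -0.345. Of 1552 other values over 87 results, 1528 kept their sign. Most of these results are genes picked for a difference of at least 2-fold in these data, so a kept sign was likely from the start. Of the 1552 values, 617 moved by at least the standard deviation of the 4 libraries. Among values of the main results, 43 moved past the limit set for their kind and 98 did not. Except where cells or genes were removed, the causes were not tested. Depth limits genes near 10 CPM most.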
